A study of Mus musculus with 22 samples.

Results

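Collagen IV is the network-forming collagen of basement membranes, and the nidogens and perlecan are the proteins that tie that network to laminin and to the cell surface. The genes described here were the rows of the deposited table whose gene symbol is Col4a1, Col4a2, Col4a3, Col4a4, Col4a5, Col4a6, Nid1, Nid2 or Hspg2. Each symbol was found in 1 row, giving 9 of the 28099 genes in the table, and all 9 passed the filter on low values. They were measured by RNA sequencing in arterial smooth muscle cells sorted by fluorescence from 7 tissues of the mouse, a design that asks how these cells differ between arterial beds. Intestine had 4 libraries, and the 6 other tissues (bladder, stomach, kidney, lung, aorta and heart) had 3. The heart cells came from Cspg4-DreERT/Acta2-CreERT/R26-GFP animals, and the cells of every other tissue from Cspg4-Dre/Acta2-CreERT/R26-GFP animals. All groups received tamoxifen at 0.75 mg per 10 g of body weight for 3 days, dissolved in corn oil at 20 mg/mL. Dre and Cre are recombinases, here under the Cspg4 (NG2) and Acta2 (smooth muscle actin) promoters, and GFP is the fluorescent reporter at the R26 locus. Cspg4 is also active in pericytes, the mural cells of capillaries. Heart and the DreERT allele occur together and cannot be told apart, and there was no unsorted or untreated group. The labels do not say whether the libraries of a tissue came from separate animals, so the p-values measure only the spread between these libraries, which may be technical.

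Collagen IV molecules are trimers of alpha chains. The alpha 1 and alpha 2 chains, from Col4a1 and Col4a2, form the heterotrimer found in nearly every basement membrane, including the one around each vascular smooth muscle cell. The alpha 3, alpha 4 and alpha 5 chains form the network of the glomerular basement membrane of the kidney, and alpha 5 with alpha 6 forms a network found in smooth muscle and some epithelia. Nidogens 1 and 2 are rod-like linkers that bind both laminin and collagen IV, and perlecan, encoded by Hspg2, is a large heparan sulfate proteoglycan of the same matrix.

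The 6 chain genes lie as head-to-head pairs, transcribed away from each other. On mm39, the build of the deposited table, Col4a1 (chromosome 8, 11248423 to 11362826, minus strand) and Col4a2 (chromosome 8, 11362805 to 11499287, plus strand) share 22 bases at their starts. Col4a4 (chromosome 1, 82426144 to 82564570, minus strand) and Col4a3 (chromosome 1, 82564642 to 82699780, plus strand) are 71 bases apart. Col4a6 (chromosome X, 139948399 to 140257072, minus strand) and Col4a5 (chromosome X, 140258381 to 140472230, plus strand) are 1308 bases apart. Nid1 lies on chromosome 13 (13612136 to 13686854), Nid2 on chromosome 14 (19801333 to 19861855) and Hspg2 on chromosome 4 (137196080 to 137297941), all on the plus strand. The library kit does not mark strand, so a read inside the 22 shared bases cannot be assigned to Col4a1 or Col4a2. RefSeq promoter windows of GRCm38.p6, each 300 bases long from 250 bases before the start to 50 after it, were matched for 7 of the 9 genes and not for Col4a3 and Nid2. The windows of the closest and the widest pair are shown because the pairs differ so much in how their starts are placed. Capitals in the Col4a1 window (8:11312777-11313076, minus strand) and the Col4a2 window (8:11312555-11312854, plus strand) mark the 78 bases that the windows share, read on opposite strands. Capitals in the Col4a5 window (X:141475169-141475468, plus strand) and the Col4a6 window (X:141474027-141474326, minus strand), which lie 842 bases apart, mark a GC box.
Col4a1: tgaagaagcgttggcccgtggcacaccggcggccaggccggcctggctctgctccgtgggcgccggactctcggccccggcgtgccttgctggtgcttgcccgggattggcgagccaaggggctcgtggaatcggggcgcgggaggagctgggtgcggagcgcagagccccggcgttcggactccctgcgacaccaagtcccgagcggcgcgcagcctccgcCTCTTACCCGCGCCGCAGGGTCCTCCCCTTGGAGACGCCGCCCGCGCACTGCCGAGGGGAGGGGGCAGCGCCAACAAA
Col4a2: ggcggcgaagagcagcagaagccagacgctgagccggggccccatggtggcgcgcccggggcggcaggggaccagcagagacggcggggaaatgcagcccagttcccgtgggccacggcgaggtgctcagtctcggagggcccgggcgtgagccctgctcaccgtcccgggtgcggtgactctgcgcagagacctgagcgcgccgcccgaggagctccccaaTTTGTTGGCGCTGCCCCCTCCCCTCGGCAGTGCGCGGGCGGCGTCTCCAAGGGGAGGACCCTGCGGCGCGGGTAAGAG
Col4a5: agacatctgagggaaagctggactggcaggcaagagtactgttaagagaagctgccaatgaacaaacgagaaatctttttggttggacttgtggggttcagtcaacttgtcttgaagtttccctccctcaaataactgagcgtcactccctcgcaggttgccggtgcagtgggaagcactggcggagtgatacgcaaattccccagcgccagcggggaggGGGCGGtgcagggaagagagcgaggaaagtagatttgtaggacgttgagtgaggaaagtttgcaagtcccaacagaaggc
Col4a6: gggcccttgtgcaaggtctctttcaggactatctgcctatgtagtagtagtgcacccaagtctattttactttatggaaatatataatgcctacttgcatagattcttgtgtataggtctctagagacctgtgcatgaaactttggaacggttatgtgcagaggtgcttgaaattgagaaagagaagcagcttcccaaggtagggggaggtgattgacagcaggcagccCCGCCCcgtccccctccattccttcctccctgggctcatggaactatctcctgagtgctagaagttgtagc

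The Col4a1 and Col4a2 windows were 74.0% and 73.7% G and C, against a median of 52.7% over 32851 windows of the same length. The Col4a5 and Col4a6 windows were 52.7% and 48.3%. Searching both strands, the GC box GGGCGG occurred in 6 of the 7 windows, all but that of Col4a4, with 5 copies in the Hspg2 window, while 35.7% of all windows held it. CCAAT occurred in the Col4a1, Col4a2, Col4a5 and Nid1 windows and in 37.4% of all windows. TATAAA was in none of the 7 windows (13.6% of all), nor was the CArG box of serum response factor (1.63% of all). The E-box CANNTG was in the Col4a4 and Col4a5 windows, against 72.3% of all. These are descriptions of letters in the windows, and no match says nothing about a factor.

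The values are the deposited scaled signal, a read count per gene scaled to make libraries comparable. The spacing of the low values gave the worth of 1 read in each library and thereby its depth. In 18 libraries the depth was between 4389363 and 12708422 reads. The 3 aorta libraries and heart 3 were shallow, with 629456 to 1927765 reads, so that 3 reads, the limit a count of 0 allows, were worth a signal of 9.91 to 28.3 there. All 10 smooth muscle markers examined were above 0 in every library. Their summed signal was lowest in bladder 3, at 12083, and highest in the shallow heart 3, at 110469. Heart 1 and 2 summed to 29876 and 29451, and the aorta libraries to 61997 to 88299. In limma, 7 of the 10 were higher in aorta, 4 in heart and 1 in lung (9.15%, 6.03% and 4.43% of all genes). In bladder 6 were lower, in intestine 6 and in stomach 3 (7.4%, 9.97% and 6.93%). No tissue had calls in both directions. The highest sums were thus those of the shallow libraries, where 1 read was worth a signal of 3.30 to 9.42, against 0.42 to 1.34 in the other 18. Bladder 3, with the lowest sum, had the 1.34. The part of depth in these marker differences was not tested. Markers of other cell types were present too, and some are given beside the results of a tissue.

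All 9 genes differed across the 7 tissues (limma F test on log2(signal + 1), Benjamini-Hochberg over 16917 genes), with adjusted p from 7.48e-07 for Nid1 to 0.0269 for Col4a4. Of all tested genes, 59.6% did. Per kilobase of exon, the mean signal over the 22 libraries was highest for Col4a1 at 617 and Col4a2 at 473, followed by Nid1 at 290 and Col4a5 at 184. Hspg2 at 83.5, Nid2 at 82.4 and Col4a6 at 58.8 were intermediate, and Col4a3 at 19.6 and Col4a4 at 8.75 were lowest. By mean signal Col4a1 stood at the 99.9th percentile of tested genes and Col4a4 at the 40th. The tissue means of a gene spanned 2.87-fold for Col4a1 and 3.36-fold for Col4a2, but 18.9-fold for Col4a3 and 21.8-fold for Col4a4. Col4a1 and Col4a2 reached 0.5 reads per exonic base in 13 and 11 of the 22 libraries, and Col4a3 and Col4a4 in none. In at least 1 library 5 of the 9 genes did, against 16.8% of tested genes with a known length. Whether such high counts were compressed, which would narrow a span, was not tested. No fold is given for Nid2, whose lowest mean, that of aorta, rests on 1, 0 and 20 reads. In tests of every tissue pair, adjusted over all genes and all 21 pairs, 64 member results passed the threshold, 13 of 21 for Nid1, 11 for Col4a2, 8 for Hspg2, 7 for Col4a1, 6 each for Col4a3 and Nid2, 5 each for Col4a5 and Col4a6 and 3 for Col4a4. The share over all genes was 20.6%.

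**Figure D1:**
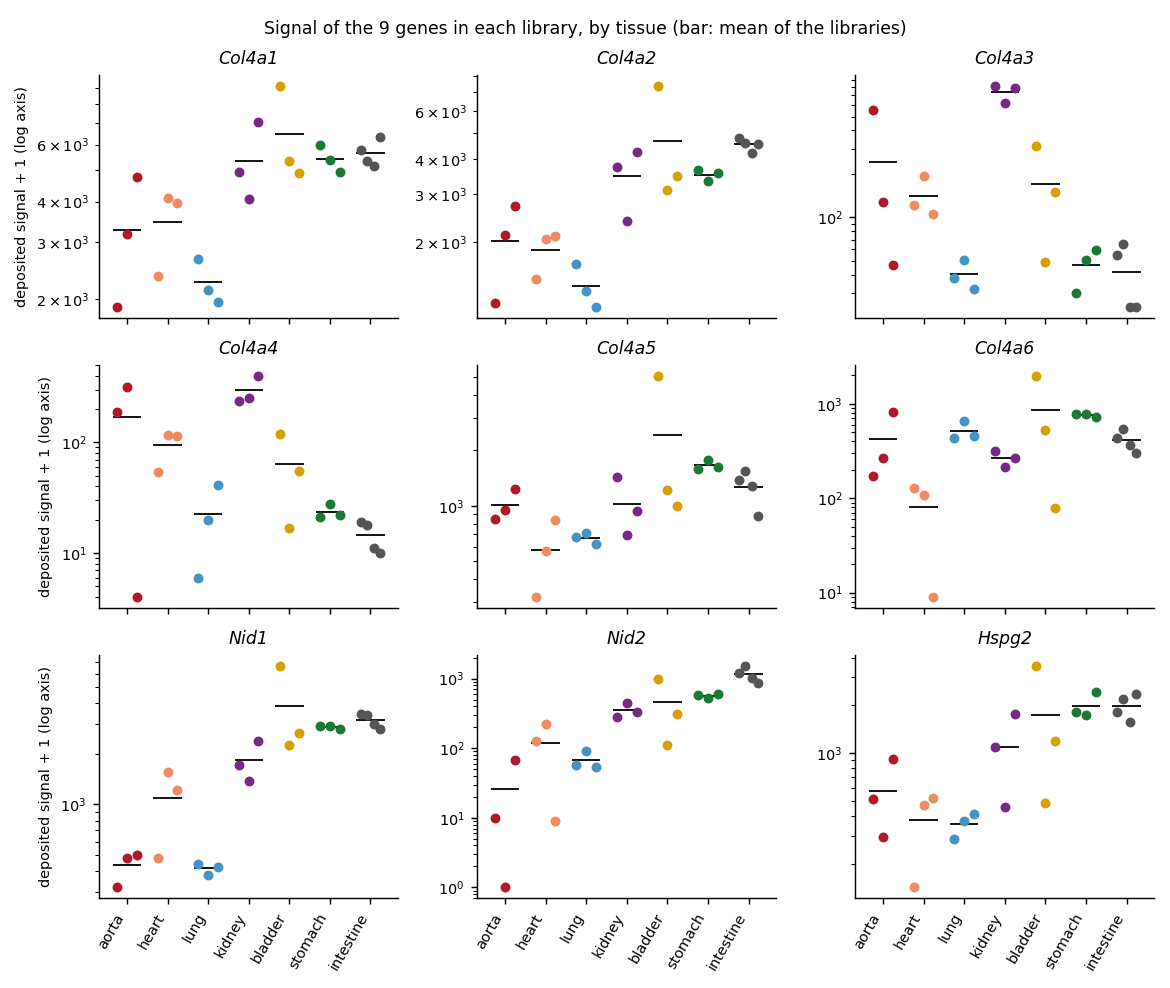
Deposited signal + 1 (log axis) of each of the 9 genes in the 22 libraries by tissue; points are libraries and bars are tissue means. Col4a3 is highest in the 3 kidney libraries (624 to 818), Nid1 is low in every aorta and lung library (320 to 502), and bladder 1 is the highest library for Col4a1, Col4a2, Col4a5, Col4a6, Nid1 and Hspg2.

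Col4a1 and Col4a2, the pair of the common network, were lowest in lung. The lung libraries read 2654, 2137 and 1960 for Col4a1 and 1666, 1325 and 1166 for Col4a2. All 3 were below every kidney, bladder, stomach and intestine library for each gene, whereas they overlapped the aorta and heart libraries. Col4a1 was lower in lung by a log2 difference of -1.06 ± 0.22 (SE) from the mean of the other 6 tissues, with an adjusted p of 0.00551 in limma. Col4a2 was lower by -1.16 ± 0.23, adjusted p 0.00351. Without lung 3 the adjusted p of Col4a1 was 0.0549 in limma, and that of Col4a2 stayed below the threshold without any single library, at most 0.0441. Alveolar epithelial markers summed to 4604 to 6145 in lung and at most 4094 elsewhere, and their part in this result was not tested. In such bulk libraries fewer cells of a type and less RNA per cell cannot be told apart.

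Intestine stood at the other end for Col4a2, at 4778, 4593, 4200 and 4555, and this was higher than in the other tissues by 0.85 ± 0.20 (limma, adjusted p 0.00435). Every intestine library was above every aorta, heart, lung and stomach library. Intestine Col4a1 was 5777, 5331, 5143 and 6343, a log2 difference of 0.50 ± 0.20 that did not pass the threshold (limma, adjusted p 0.0735). Bladder held the highest tissue means of both genes but the widest spread. Bladder 1, 2 and 3 read 9126, 5330 and 4915 for Col4a1 and 7401, 3087 and 3464 for Col4a2, so bladder 1 stood apart and the other 2 lay among the kidney and stomach libraries. Col4a2 was called higher in bladder, 0.77 ± 0.23 (limma, adjusted p 0.0281), a call that ended without bladder 1 (0.37, adjusted p 0.326). The bladder difference of Col4a1 was 0.66 ± 0.22 (limma, adjusted p 0.0502). It passed by edgeR (adjusted p 0.0297) and DESeq2 (0.0419). In limma it passed with a pseudocount of 8 (0.0429) and without the aorta libraries and heart 3 (0.0189). Fibroblast markers summed to 42431 to 61738 in bladder, with 6 of 10 higher there, and immune markers to 1399 to 2937, with 5 of 5 tested genes higher. Basal and urothelial markers summed to 609 to 6984, with 4 of 8 tested genes higher. These lists were highest in bladder 3, at 61738, 2937 and 6984. Pericyte markers summed to 15236, 6524 and 3054 in bladder 1, 2 and 3, with 0 of 10 genes called higher in bladder and 1 lower. The part of any of these lists in the bladder levels of Col4a2 and Nid1 was not tested.

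Aorta and heart came next above lung in the order of Col4a1 and Col4a2. Aorta Col4a2 was 1206, 2128 and 2705, lower by -0.60 ± 0.23 (limma, adjusted p 0.0353), where the median difference of all genes in aorta was -1.04. That call ended without aorta 1 (adjusted p 0.389) or aorta 2 (0.0552). Aorta Col4a1, at 1894, 3174 and 4756, overlapped the heart and kidney libraries and did not pass (limma, adjusted p 0.0533). In heart, Col4a1 was 2350, 4111 and 3948 and Col4a2 was 1476, 2052 and 2111, and neither passed (limma, adjusted p 0.258 and 0.0560). Heart Col4a2 was called lower by DESeq2 (-0.72, adjusted p 0.0300). In limma it was called lower with median-of-ratios scaling (-0.71, 0.0410), array weights (-0.76, 0.0103) and without the aorta libraries and heart 3 (-0.86, 0.0182). No tissues next to each other in the order of either gene differed from each other.

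Col4a1 exceeded Col4a2 in all 22 libraries, by a log2 ratio of 0.21 to 1.00 with a median of 0.67. The ratio varied far less than its parts. Its SD over the libraries was 0.214, against 0.619 for Col4a1 and 0.728 for Col4a2. The lowest ratios were in intestine, with a mean log2 ratio of 0.315 ± 0.114 (SD, n = 4), against 0.671 in the other libraries. Of the 28 tests of a pair ratio in a tissue against all other libraries, this was the single call (two-sided exact permutation test, p = 0.000957, adjusted p = 0.0268). It ended without intestine 1, 2 or 3, with adjusted p of 0.126, 0.168 and 0.105 by the same exact permutation test. Heart had the highest mean ratio, 0.859 ± 0.170 (SD, n = 3), which did not pass the correction (exact permutation p = 0.0234, adjusted p = 0.209). The scaling of a library bears on such a ratio only through the pseudocount of 1, which weighs on it where signals are low. Read number may still bear on it. The intestine libraries held 10989 to 12343 reads of Col4a1. Outside intestine, the lowest ratios were in bladder 1 (0.30), kidney 1 (0.40) and stomach 3 (0.47). Those libraries also held the most Col4a1 reads there, at 11753, 10789 and 10640. The part of read number in the intestine ratio was not tested.

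Col4a3 and Col4a4, the chains of the glomerular network, were highest in kidney. Col4a3 read 818, 624 and 787 in kidney and between 23 and 556 in the other 19 libraries, so the groups did not overlap. It was higher in kidney by 3.30 ± 0.57 (limma, adjusted p 0.00063), with tissue means of 743 ± 104 (SD, n = 3) in kidney and 113 over the other 6 tissues. It also passed against each of the 6 tissues singly, including aorta, the next in the order (limma, adjusted p 0.0353). Col4a4 read 235, 249 and 398 in kidney and 3 to 316 elsewhere, with aorta 2 the only library outside kidney that reached into the kidney range. Its difference was 3.09 ± 0.89 (limma, adjusted p 0.0312), a call that ended without kidney 1, 2 or 3 (adjusted p 0.110, 0.0735 and 0.172), although the difference then stayed between 2.85 and 3.23.

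Markers of nephron cells were present in the kidney libraries. All 10 tubule markers were above 0 in each of them, summing to 6565 to 19089, against at most 144 in any other library. Umod, a product of the thick ascending limb, was 966, 1820 and 3438 in kidney 1, 2 and 3, and Aqp2, the water channel of the collecting duct, was 272, 1529 and 1152. The podocyte list, named for the cells that make the alpha 3 and alpha 4 chains in the glomerulus, summed to 5201 to 5395 in kidney and at most 4537 elsewhere. Of 8 podocyte markers tested, 3 were higher in kidney and none lower (6.35% and 4.11% of all genes). Their median log2 difference there was 1.40, against 0.22 over all genes. The list was not particular to kidney, since in heart 4 were higher and none lower (6.03% and 12.4%), with medians of 0.72 and -0.19. Synpo, encoding the actin-binding synaptopodin, averaged 2092 ± 501 in kidney (SD, n = 3) and at most 1065 in another tissue. Podxl, encoding podocalyxin, averaged 960 ± 278 in kidney (SD, n = 3) and at most 609 in another tissue. Nphs1, encoding nephrin of the slit diaphragm, was 10, 35 and 1 in kidney 1, 2 and 3. The part of podocytes and of tubule epithelium in the kidney level was not tested.

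Outside kidney the pair was sparse and uneven. In aorta 1, 2 and 3 Col4a3 was 556, 126 and 46 and Col4a4 was 188, 316 and 3, which were only 59, 31 and 14 reads of Col4a3 and 20, 78 and 1 reads of Col4a4. The aorta levels therefore spread over the range of nearly all other tissues, and the limma differences were 0.61 ± 0.57 and 0.51 ± 0.89. On rebuilt reads, aorta Col4a4 was called higher by edgeR (1.98, adjusted p 0.0180) and by DESeq2 (1.94, adjusted p 0.0152), and Col4a3 by DESeq2 alone (adjusted p 0.0358). In heart Col4a3 was 120, 192 and 105 and Col4a4 was 53, 115 and 113. Stomach, intestine and lung were lowest, with 23 to 64 for Col4a3 and 5 to 40 for Col4a4. Intestine Col4a3, at 54, 64, 23 and 23, was lower by -1.70 ± 0.51 (limma, adjusted p 0.0190), and the call ended without intestine 3 (adjusted p 0.0890) or intestine 4 (0.0827). Bladder was uneven again, with Col4a3 at 311, 48 and 149 and Col4a4 at 117, 16 and 54.

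Col4a3 exceeded Col4a4 in 19 of the 22 libraries, the exceptions being aorta 2, heart 3 and lung 3, and no tissue differed in this ratio. In kidney the log2 ratio was 1.37 ± 0.41 (SD, n = 3), in bladder 1.46 ± 0.06 (n = 3) and in intestine 1.44 ± 0.32 (n = 4). These ranges overlapped, although the level of the pair was highest in kidney and near its lowest in intestine. In aorta the ratio ranged from -1.32 to 3.55.

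Col4a5 and Col4a6, which form the alpha 5 and alpha 6 network, were lowest in heart. Col4a6 read 126, 107 and 8 in heart, with heart 3 resting on 1 read. Apart from bladder 3, at 78, every other library was above the heart libraries, at 170 to 1970. Col4a6 was lower in heart by -3.09 ± 0.71 (limma, adjusted p 0.00547). The call ended without heart 3 (-1.86, adjusted p 0.109), and the difference was -2.46 by edgeR and -1.93 when the shallow aorta libraries and heart 3 were all left out, still past the threshold in those fits (adjusted p 0.0157 and 0.0359). Heart Col4a5 was 318, 563 and 833, lower by -1.13 ± 0.35 (limma, adjusted p 0.0286), and overlapped lung and kidney. That call ended without heart 1 (adjusted p 0.182) or heart 2 (0.0548) and by edgeR (0.0540). Endothelial markers summed to 9401 to 10898 in heart and pericyte markers to 17990 to 51522, with 7 of 13 and 5 of 10 of those genes higher in heart. Cardiomyocyte markers summed to 2855 to 4649 in heart and 3160 to 3453 in lung, with 5 of 7 tested genes higher in heart and none lower. Their part in the heart results was not tested.

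The other tissues did not pass in the main limma fit for either gene. Bladder Col4a5 was called higher by edgeR (1.31, adjusted p 0.00365) and by DESeq2 (1.29, 0.00474). It was also called higher in limma without the aorta libraries and heart 3 (1.03, adjusted p 0.0257). Lung Col4a5 was called lower by DESeq2 (adjusted p 0.0451) and with array weights (0.0303). With array weights, stomach Col4a5 and Col4a6 and intestine Col4a5 were called higher. Stomach was even and high, with Col4a5 at 1584, 1768 and 1619 and Col4a6 at 773, 769 and 731. Lung was low for Col4a5, at 677, 713 and 615, but not for Col4a6, at 438, 658 and 451. Lung Col4a6 lay above all kidney and heart libraries. Bladder 1, 2 and 3 differed from each other by as much as any tissues did, at 5074, 1211 and 990 for Col4a5 and 1970, 527 and 78 for Col4a6. Aorta, at 848, 948 and 1232 for Col4a5 and 170, 268 and 816 for Col4a6, and intestine, at 879 to 1539 and 302 to 536, lay between. Kidney Col4a5 was 1431, 696 and 933 and Col4a6 was 312, 213 and 266.

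Col4a5 exceeded Col4a6 in all 22 libraries, by a log2 ratio of 0.12 to 6.53. The ratio was lowest in lung, 0.396 ± 0.259 (SD, n = 3), against 1.94 in the other libraries, and this did not pass (exact permutation p = 0.0870, adjusted p = 0.406). When the aorta libraries and heart 3 were left out, the lung difference was -1.31 and passed (exact permutation, adjusted p = 0.0441). In heart the mean ratio was 3.42 ± 2.75, the spread coming from heart 3, and it did not pass either (exact permutation p = 0.0299, adjusted p = 0.209).

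Nid1, encoding the main linker of laminin and collagen IV, separated the tissues more clearly than any chain gene. The lung libraries read 441, 381 and 426 and the aorta libraries 320, 482 and 502. Heart followed at 478, 1551 and 1222, kidney at 1709, 1380 and 2397, stomach at 2945, 2909 and 2826, intestine at 3441, 3398, 2995 and 2820, and bladder at 6650, 2268 and 2674. Aorta and lung overlapped each other and, apart from heart 1, lay below every library of the other tissues. Nid1 was lower in lung by -2.02 ± 0.29 (limma, adjusted p 0.000153) and in aorta by -1.98 ± 0.29 (adjusted p 3.02e-05). It was higher in bladder by 1.53 ± 0.29 (limma, adjusted p 0.00101), in intestine by 1.39 ± 0.25 (0.000468) and in stomach by 1.24 ± 0.29 (0.00376). These 5 calls held without any single library and in every other fit that was run. Among neighbours in the order, only heart and aorta differed (limma, adjusted p 0.0311), although heart 1 fell within the aorta range.

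Nid2 was highest in intestine, at 1202, 1511, 1017 and 866, and lowest in aorta, at 9, 0 and 66. The aorta values were 1, 0 and 20 reads, so aorta 1 and 2 were below the limit that a count of 0 allows (28.3 and 12.2). All intestine libraries were above all others except bladder 1, at 978, which fell between them. Nid2 was higher in intestine by 3.29 ± 0.79 (limma, adjusted p 0.00454), and by 2.27 when the aorta libraries and heart 3 were left out (adjusted p 0.000121). It was lower in aorta by -4.88 ± 0.89 (limma, adjusted p 0.000258). The size of that difference depended on how low values were treated, being -3.68 with a pseudocount of 8, -3.30 by edgeR and -3.42 by DESeq2, while leaving out aorta 2 or aorta 3 gave -3.32 or -6.35. All of these passed the threshold. Stomach Nid2 was 573, 528 and 595, kidney 283, 448 and 333, bladder 978, 110 and 309, lung 56, 91 and 52, and heart 125, 223 and 8. None of these 5 tissues passed in the main limma fit. Lung Nid2 was called lower by edgeR (-2.06, adjusted p 0.0379), by DESeq2 (-2.15, 0.00311) and with array weights (-1.48, 0.0101). It was also called lower in limma without the aorta libraries and heart 3 (-2.66, adjusted p 0.000118). Stomach Nid2 was called higher in each of those fits and with a pseudocount of 8, by 1.08 to 2.03.

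Nid1 exceeded Nid2 in all 22 libraries. The log2 ratio was lowest in intestine, 1.49 ± 0.23 (SD, n = 4), against 3.39 in the other libraries, and did not pass the correction (exact permutation p = 0.0485, adjusted p = 0.272). Computed as the share of Nid1 in the sum of both, the intestine difference passed (exact permutation, adjusted p = 0.0115). It was 2.35 ± 0.65 in kidney, 2.36 ± 0.11 in stomach, 2.67 ± 0.54 in lung and 3.41 ± 0.84 in bladder (SD, n = 3 each). In aorta the ratio was 5.61 ± 3.05 and reached 8.92 in aorta 2, where Nid2 was at 0 and the value is set by the pseudocount.

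Hspg2, encoding perlecan, was highest in stomach, at 1803, 1728 and 2423, and intestine, at 1815, 2203, 1571 and 2349. It was higher in stomach by 1.44 ± 0.47 (limma, adjusted p 0.0329) and in intestine by 1.44 ± 0.41 (limma, adjusted p 0.0145). The stomach call ended without stomach 1, 2 or 3 (adjusted p 0.0988, 0.0974 and 0.165) and the intestine call without intestine 2 or 4 (0.0536 and 0.0543). Heart Hspg2 was 141, 467 and 518, lower by -1.58 ± 0.47 (limma, adjusted p 0.0235), and -0.98 without heart 1, which ended the call (adjusted p 0.184). Lung was as low, at 287, 371 and 413, but missed the threshold in the main fit (-1.44 ± 0.47, limma adjusted p 0.0637). The lung difference passed in limma with a pseudocount of 8, no filter, array weights or without the aorta libraries and heart 3. It also passed by edgeR (adjusted p 0.0405) and DESeq2 (0.00294). Kidney, at 1084, 457 and 1748, and bladder, at 3525, 480 and 1182, were uneven, and aorta, at 509, 296 and 912, overlapped heart and lung. Gut epithelial markers summed to 9205 to 11500 in stomach and 3273 to 5064 in intestine, against at most 421 elsewhere. Of 10 visceral smooth muscle markers, 6 were higher and 0 lower in stomach and in intestine, with median log2 differences of 2.17 and 1.94. Of 7 Schwann and neural markers tested, 3 were higher in each, and 1 was lower in intestine. Over all genes, 13.4% were higher in stomach and 15.5% in intestine. The part of these cell types in the stomach and intestine results of Hspg2, Nid1, Nid2 and Col4a2 was not tested.

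Read tissue by tissue in the limma fit, 3 of 9 in lung were lower and none higher, against 3.48% and 4.43% of all genes, with a median log2 difference of -1.44 for the 9 and 0.15 for all genes. In heart 3 were lower and none higher (12.4% and 6.03% of all genes), with medians of -0.65 and -0.19. In aorta 3 were lower and none higher, but 42.8% of all genes were lower there and 9.15% higher, so 3 of 9 was no more than the background, and the medians were -0.53 for the 9 and -1.04 for all genes. In kidney 2 were higher and none lower (6.35% and 4.11%), with medians of 0.37 and 0.22. In bladder 2 were higher and none lower (8.31% and 7.4%), with medians of 0.70 and 0.06. In stomach 2 were higher and none lower (13.4% and 6.93%), with medians of 0.79 and 0.30, while Col4a3 was called lower there by edgeR (-1.63, adjusted p 0.0446), by DESeq2, with array weights and without the shallow libraries. In intestine 4 were higher and 1 lower (15.5% and 9.97%), with medians of 0.50 and 0.34. Rescaling the libraries by the median of their ratios moved the median of all genes in lung from 0.15 to 0.02 and the share of higher calls there from 56.1% to 45.0%. The low lung levels of Nid1, Col4a1 and Col4a2 were known from an earlier analysis of these data when the genes were chosen, and are no independent evidence.

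**Figure D2:**
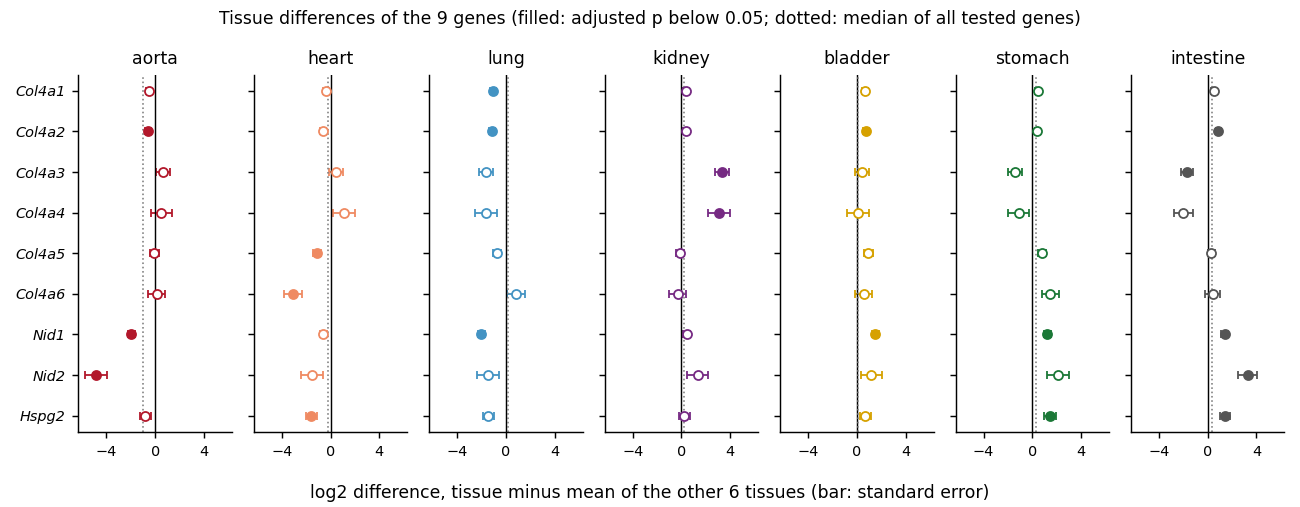
Log2 difference of each tissue from the mean of the other 6 tissues (x axis, 1 panel per tissue) for each of the 9 genes, with standard errors; filled points have an adjusted p below 0.05 in limma and dotted lines are the median of all tested genes. The kidney points of Col4a3 (3.30) and Col4a4 (3.09) stand apart from the other members there, and the aorta line of all genes lies at -1.04.

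Across the 22 libraries, Col4a1 and Col4a2 followed each other more closely than either followed any of the other 16916 tested genes, with a Pearson r of 0.962 on log2(signal + 1). Col4a3 and Col4a4 were likewise each other's nearest gene, with r = 0.861. The wider pair did not behave in this way. Col4a5 and Col4a6 had r = 0.557, and Col4a6 ranked 577 among the genes most like Col4a5, while Col4a5 ranked 1554 in the other direction. Nid1 and Nid2, which lie on different chromosomes, had r = 0.762 and ranks of 473 and 1317. The points share library, depth and tissue, and the values are descriptions over 22 libraries. Over the 18 libraries left without aorta and heart 3, r was 0.963, 0.935, 0.723 and 0.864 for the 4 pairs in this order, and the first 2 pairs were again nearest to each other. With Spearman's coefficient the values were 0.922, 0.855, 0.636 and 0.895, and the ranks of the partners were 2 and 4 for Col4a1 and Col4a2 and 2 and 1 for Col4a3 and Col4a4. The ranks of the other 2 pairs depended much on the measure and the libraries. In place of 577 and 1554, Col4a5 and Col4a6 had 687 and 46 over the 18 libraries and 1199 and 202 by Spearman. In place of 473 and 1317, Nid1 and Nid2 had 193 and 140, and 54 and 88.

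**Figure D3:**
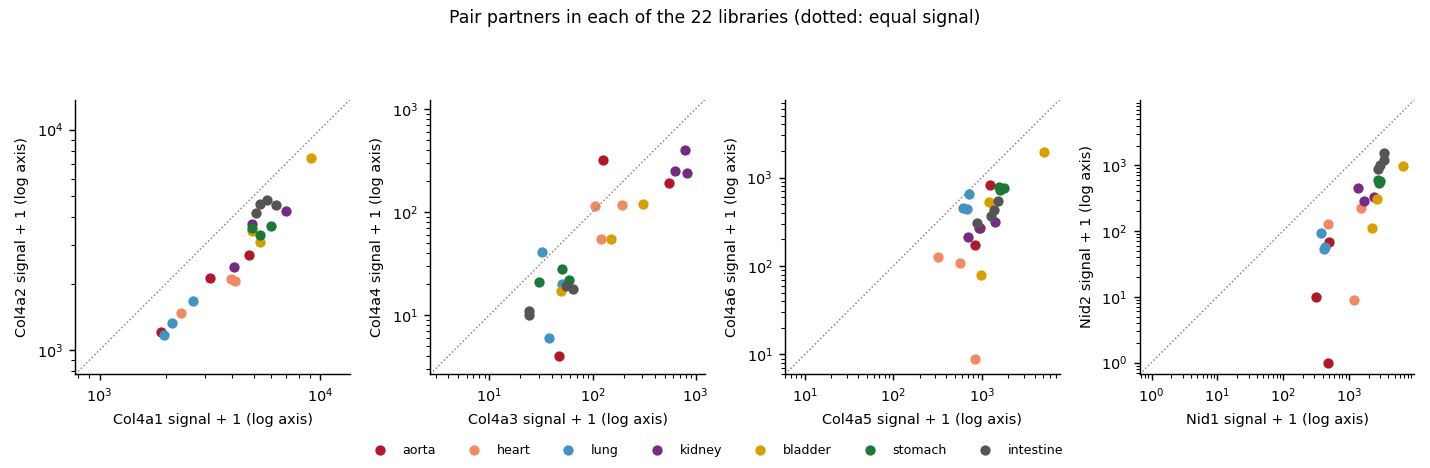
Signal + 1 of the partners of each pair plotted against each other (both axes log), 1 point per library coloured by tissue, with a dotted line at equal signal. Col4a1 and Col4a2 lie close to a line below equality in all 22 libraries, while the other pairs scatter more, most of all where heart 3 and the aorta libraries hold few reads.

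Col4a5 followed the chains of the common network more closely than its own partner, with r = 0.774 with Col4a2 (rank 13) and 0.719 with Col4a1 (rank 42). Between other chains of different pairs, Col4a1 and Col4a3 had r = 0.04 over the 22 libraries, Col4a2 and Col4a4 had r = -0.09 and Col4a4 and Col4a6 had r = -0.39. Nid1 and Hspg2 sided with the first pair. Nid1 was the second nearest gene of both Col4a1 (r = 0.91) and Col4a2 (r = 0.92), and Col4a2 was in turn the second nearest of Nid1. Hspg2 had r = 0.872 with Col4a2, 0.835 with Nid1 and 0.821 with Col4a1, and was the third nearest gene of Col4a5 (r = 0.804).

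By the same measure, after its partner and Nid1, the 5 genes nearest to Col4a1 were completed by Pkd1, Zdhhc5 and Clstn1 (r = 0.889 to 0.896), and those nearest to Col4a2 by Arhgap23, Piezo1 and Serinc5 (0.907 to 0.919). Nid1 was nearest to Zfp598 (0.924), followed by Col4a2, Pkd2, Piezo1 and Lamc1, the gamma 1 chain of most laminins (0.915 to 0.920). Hspg2 was nearest to Piezo1 (0.927), then Ube3b, Tnrc18, Itgav and Xpo7 (0.904 to 0.912). Nid2 was nearest to Ankrd50 (0.952), Arhgap35, Pomt2, Topbp1 and Dlg3 (down to 0.932). After each other, Col4a3 had Gm5834, Hapln3 and Luzp1 among its nearest genes (0.812 to 0.837) and Col4a4 was nearest to Mrgprh, Armc3, Ric8b and Hapln3 (0.765 to 0.777). Col4a5 was nearest to Hdlbp (0.886), with Pafah1b2, Hspg2, Fndc3b and Sft2d2 next (0.801 to 0.825), and Col4a6 to Slc12a9, Shb, Gga2, Eef2k and Rhobtb1 (0.850 to 0.870). Nothing is implied about shared function or control.

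Summed per kilobase of exon, Col4a1 and Col4a2 made up most of the collagen IV signal in every library, from 66.4% in aorta 1 to 90.0% in intestine 4, with a median of 80.4%. Col4a5 and Col4a6 contributed 9.19% in kidney 3 to 29.6% in bladder 1, with a median of 17.3%. By tissue, that share was 24.3% ± 3.73 in lung, 21.3% ± 1.49 in stomach, 12.2% ± 3.43 in kidney and 10.9% ± 1.48 in heart (SD, n = 3 each). The libraries of lung and stomach did not overlap those of heart and kidney. Col4a3 and Col4a4 contributed 6.82% ± 0.75 in kidney (SD, n = 3), 2.64% ± 0.47 in heart, 1.05% ± 0.54 in bladder, 0.90% ± 0.32 in lung, 0.42% ± 0.12 in stomach and 0.32% ± 0.14 in intestine (n = 4). In aorta that share was 5.32% ± 5.47, from 0.37% in aorta 3 to 11.2% in aorta 1, the highest of all libraries, which rested on 59 reads of Col4a3 and 20 of Col4a4. In heart the share was above all lung, bladder, stomach and intestine libraries. These shares are of signal per exonic length and say nothing of protein or of assembled trimers.

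**Figure D4:**
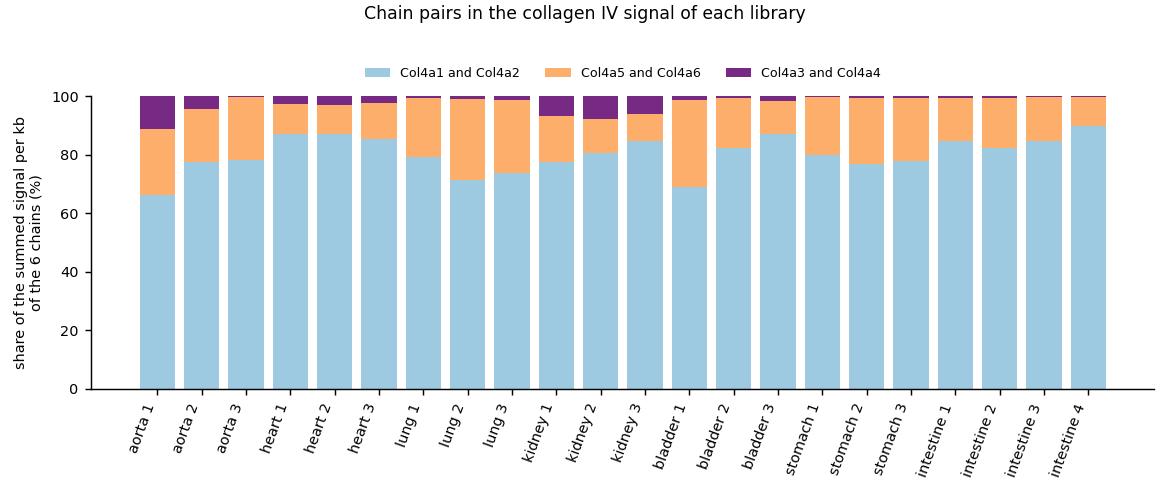
Share of the summed signal per kilobase of the 6 collagen IV chain genes taken by each chain pair (y axis, %) in each of the 22 libraries. Col4a3 and Col4a4 are visible in kidney (6.21% to 7.66%), heart (2.13% to 3.05%) and the shallow aorta 1 (11.2%) and aorta 2, and take under 1.5% in lung, bladder, stomach and intestine.

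Laminins are the other network of the basement membrane, to which nidogens attach through the gamma chains. Of 11 laminin chain genes tested, 10 differed across tissues in the limma F test, against 59.6% of all tested genes. In intestine 5 were higher and none lower (15.5% and 9.97% of all genes), with a median log2 difference of 1.67, against 0.34 over all genes and 0.50 for the 9 genes above. In aorta 8 were lower and none higher (42.8% and 9.15%), with a median of -2.66, against -1.04 and -0.53. In heart 4 were lower (12.4%), in lung 2 (3.48%), and in stomach 3 were higher (13.4%). Lamc1 followed Nid1 in direction. It averaged 342 ± 291 in aorta, 574 ± 156 in lung, 3919 ± 561 in intestine (n = 4) and 5244 ± 3118 in bladder (SD, n = 3 elsewhere), and was lower in aorta and lung and higher in bladder, intestine and stomach (limma, adjusted p from 3.73e-05 to 0.0458). Lama5, which with beta 2 and gamma 1 forms the laminin of the mature glomerulus, averaged 1605 ± 667 in kidney and was higher there by 1.79 ± 0.43 (limma, adjusted p 0.00995). Lama1, at 331 to 495 in intestine and 0 in all 3 heart libraries, and Lamb3, at 451 to 512 in stomach and 0 in all 3 aorta libraries, were the most uneven, although 3 reads in the aorta libraries and heart 3 were worth up to 28.3.

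Of 22 genes for folding, modifying and crosslinking collagen IV, 19 differed across tissues in the limma F test, against 59.6% of all tested genes. In aorta 7 were higher and 8 lower (9.15% and 42.8% of all genes), with a median log2 difference of 0.00, against -1.04 over all genes. Serpinh1, the collagen chaperone HSP47, averaged 8070 ± 830 in aorta and 1925 ± 276 in intestine (n = 4). It was higher in aorta by 1.56 ± 0.16 (limma, adjusted p 7.14e-07) and lower in intestine by -0.86 ± 0.14 (adjusted p 0.000172). Sparc, a collagen-binding matrix protein, averaged 18740 ± 9447 in aorta and 1922 ± 288 in intestine, with differences of 2.50 ± 0.33 and -1.22 ± 0.29 (limma, adjusted p 1.17e-05 and 0.00453). Both were thus at their highest in aorta, where Nid1, Nid2 and Col4a2 were lower. They were at their lowest in intestine, where Nid1, Nid2, Hspg2 and Col4a2 were higher. These tissues also differed in depth, 1 read being worth a signal of 3.30 to 9.42 in aorta and 0.42 to 0.58 in intestine. Whether high read counts were compressed in the deep intestine libraries was not tested. In bladder 10 of the 22 were higher and none lower (8.31% and 7.4%). Fibroblast markers summed to 42431 to 61738 in bladder and 37425 to 85604 in aorta, against at most 33649 elsewhere, and their part was not tested.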

How the data were processed

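RNA from sorted arterial smooth muscle cells of 7 mouse tissues was extracted with a micro-scale column kit with DNase digestion, and at most 10 ng entered SMART-Seq v4 library preparation, per the labels' protocols. The submitters' processing notes give mm39 as the build, featureCounts 2.0.4 and DESeq2 1.36.0 among the tools, and before them STAR 2.7.10a, Trimmomatic 0.39 and Picard 3.0.0. The deposited signal is a whole number per gene, scaled by the authors between libraries, and whether duplicate reads were removed is not given in the sources used here. For every library the signal worth of 1 read was estimated from the spacing of its values, and on simulated data 39 of 40 such steps were recovered within 1%. In bladder 2 the worth that fitted best was 0.494. The value used was 0.988, because the reads of the 50 genes of highest mean signal then lay nearer those of the other libraries. Its depth is therefore less sure.

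The 16917 genes that reached a signal of 10 in 3 or more libraries were tested on log2(signal + 1) with limma 3.58.1 in R 4.3.3, all 22 libraries in 1 fit with 15 residual degrees of freedom, each tissue against the unweighted mean of the other 6, with Benjamini-Hochberg adjustment over all tested genes at 0.05. Tests were two-sided. Pair ratios were tested by exact permutation over libraries, enumerated in Python 3.11.15 with numpy 2.4.6, with adjustment over 28 tests. The ranks for Spearman's coefficient came from scipy 1.17.1. In simulated data for lung against the other tissues, 4% of 100 genes raised 2-fold and 96% of 100 raised 8-fold were called, and 2 of 15903 unchanged genes were. Every simulated gene had the same dispersion and no gene was lowered. These rates therefore do not say how often a change of any of the 9 genes would be called. Alternatives were other pseudocounts, no filter, rescaling, array weights, edgeR 4.0.16 and DESeq2 1.42.0 on rebuilt reads, a replicate block and leaving out libraries. All 9 genes and, for each, the 5 genes of highest Pearson correlation over the libraries were named, apart from an item that is not reported here. Of the other gene lists, up to 4 genes past the threshold with the largest differences and the 2 with the highest mean could be named, and Lama5 and the single kidney markers were named after their values were seen. The genes and lists were chosen with earlier results of these data known.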

Additional observations from a re-analysis of the deposited data

How the results depend on the processing

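Of the 20 member differences that passed in limma, none changed direction under any alternative, and 19 of 20 still passed by DESeq2 and 18 by edgeR, both on rebuilt reads, 19 with array weights, 19 with median-of-ratios scaling, and all 20 with no filter or with a pseudocount of 0.5 or 8. Col4a2 in aorta was lost with array weights, DESeq2, edgeR and rescaling, and Col4a5 in heart with edgeR. Leaving out 1 library kept 422 of 440 calls. The number of members called was 7 in lung with array weights, 6 with edgeR and 7 with DESeq2, against 3, all lower. It was 4 in bladder and 4 in stomach with edgeR and with DESeq2, against 2 each, and array weights gave 9 in stomach and 8 in intestine. The 4 in stomach were 3 higher and 1 lower, Col4a3, and the 9 were 7 higher and 2 lower, Col4a3 and Col4a4. Without the aorta libraries and heart 3 the members called were 5 in heart, 7 in lung, 4 in bladder and 4 in stomach. Pair ratio calls were 3 on shares and 4 without those libraries, against 1. Leaving out each library in turn gave 2 to 6 members called in aorta, 1 to 4 in heart, 2 to 5 in lung, 1 to 2 in kidney, 1 to 4 in bladder, 1 to 4 in stomach and 3 to 7 in intestine, and 0 to 1 ratio calls. The cause of these changes was not tested.

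Replicate numbers showed no clear pairing of the samples, but with 3 or 4 libraries a tissue this cannot exclude that same-numbered libraries share an animal. The deviations of same-numbered libraries had a median correlation of -0.01 over 63 pairs, 3 of them above 0.1, and 5 of 22 libraries were nearest to their own number. With the replicate number as a block, 16 of 20 calls were kept, with 1 member called in kidney and 3 in intestine. The calls lost were Col4a2 in aorta, Col4a4 in kidney, and Col4a3 and Hspg2 in intestine.

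For the other gene lists the counts moved more. The laminin count ranged over all settings from 3 to 9 in aorta, 1 to 6 in heart, 0 to 5 in lung, 2 to 6 in bladder, 2 to 8 in stomach and 5 to 8 in intestine, and the folding and crosslinking count from 6 to 16 in aorta and 6 to 15 in bladder. Depth limits Col4a3, Col4a4, Col4a6 and Nid2 in the 4 shallow libraries, where 1 read was worth a signal of 3.30 to 9.42. A difference that misses the threshold there does not show that levels were alike. At the other end, whether the counts of highly expressed genes were compressed in the deep libraries was not tested.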

Other observations

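Beyond the chains and their linkers, the receptors of the basement membrane were also uneven between tissues. Of 18 receptor genes, 16 differed in the limma F test, against 59.6% of all tested genes. Itgb4 and Itga6, the subunits of the laminin-binding integrin of hemidesmosomes, were higher in stomach by 4.59 ± 0.84 and 4.25 ± 0.84 on the log2 scale (limma, adjusted p 0.000529 and 0.00107), with signals of 659 to 818 and 1205 to 1605. Gut epithelial markers were high in the same 3 libraries. Basal and urothelial markers summed to 2793 to 3243 there, with 4 of 8 tested genes higher and a median log2 difference of 2.48. The part of either was not tested. Bcam, a receptor of the laminin alpha 5 chain, averaged 6993 ± 1835 in aorta and 1335 ± 57.8 in stomach (SD, n = 3 each), higher in aorta by 1.61 ± 0.37 and lower in stomach by -1.14 ± 0.37 (limma, adjusted p 0.00172 and 0.0348). Itgb1, the beta 1 subunit shared by most matrix-binding integrins, was higher in aorta by 0.92 ± 0.23 (adjusted p 0.00358) and lower in intestine by -0.68 ± 0.21 (adjusted p 0.0217).

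Of 19 genes that degrade the basement membrane or inhibit its degradation, 18 differed in the limma F test, against 59.6% of all tested genes. In bladder 11 were higher and 2 lower, against 8.31% and 7.4% of all genes, with a median log2 difference of 1.57 and 0.06 over all genes. The count called in bladder ranged from 8 to 18 over the alternatives. Hpse, which encodes the heparanase that trims heparan sulfate chains such as those of perlecan, was 463 to 1161 in bladder, 410 to 516 in intestine, 417 to 484 in stomach and 0 in all 3 aorta libraries, where 3 reads were worth 9.91 to 28.3. Timp4, an inhibitor of matrix metalloproteinases, was 1396 to 1744 in lung and higher there by 4.45 ± 0.47 (limma, adjusted p 7.1e-06). Immune markers summed to 1399 to 2937 in bladder, with 5 of 5 tested genes higher there, and their part in the bladder counts was not tested.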
